A study of Mus musculus with 6 samples.

Results

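The 9 genes described here make, branch and break down glycogen, or direct the phosphatase that switches between these activities. They were chosen by name (Pgm2, Ugp2, Gyg, Gys1, Gbe1, Ppp1r3c, Ppp1r3b, Pygl and Pygb) and found in the count table through their Ensembl identifiers, 9 of 55426 features in all. The RNA came from primary mouse pancreatic stellate cells (PSCs), fibroblast precursors isolated from the pancreas of adult wild-type C57/BL6 mice of both sexes and used at early passage. PSCs sat in Matrigel in a transwell insert above organoids of mT3, a single mouse pancreatic ductal adenocarcinoma (PDAC) cell line from a genetically engineered mouse model, and all 6 samples shared this coculture. Normoxic samples were kept at 21% O2 and hypoxic samples at 1% O2, 3 of each, for 48 h. The question addressed is how the genes of glycogen synthesis, branching and breakdown differed in PSCs between these oxygen levels. Whether the 3 samples of a condition came from separate PSC lines is not stated for the sequencing, so p-values measure the spread between these samples, which may be technical.

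Glycogen is a branched polymer of glucose stored as granules in the cytosol. Phosphoglucomutase and UDP-glucose pyrophosphorylase turn glucose-6-phosphate into UDP-glucose, glycogenin starts a chain on itself, glycogen synthase lengthens it, and branching enzyme adds side chains. Phosphorylase releases glucose-1-phosphate from chain ends, while targeting subunits hold protein phosphatase 1 (PP1) on the granule, where it activates synthase and inactivates phosphorylase. Cultured cells, fibroblasts among them, are known to store more glycogen in low oxygen, and some genes of synthesis are known targets of the hypoxia-inducible factors. Glycogen itself was not measured in these samples.

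Libraries held 24749601 to 31925054 expected counts, the read numbers per gene that RSEM estimates. All 8 genes fixed as a check of the treatment, among them Vegfa and Car9, were higher at 1% O2. Fibroblast markers were present in all samples, and their summed level, most of it collagen genes, overlapped between conditions. Of these 11 markers, Pdgfra and Pdpn were called higher and Lum and Thy1 lower. Of 8 epithelial markers, 6, Epcam among them, were under 1 CPM (the usual scaling of counts to library size, here with TMM factors) in every sample. Krt19 averaged 0.715 ± 0.297 CPM at 21% O2 and 22.1 ± 1.66 CPM at 1% O2 (SD, n = 3 each). Muc1 averaged 2.57 ± 0.57 CPM at 21% O2 and 3.83 ± 0.45 CPM at 1% O2 (SD, n = 3 each), without overlap, and was not called. The summed level of 11 macrophage and leukocyte markers was 932 to 1654 CPM in normoxic and 477 to 848 CPM in hypoxic samples, most of it Lyz2, and 7 of them were called lower, while Ptprc, Csf1r, Cd14 and Itgam were not called. That of 5 adipocyte markers was 588 to 1522 CPM in normoxic and 58.6 to 77.5 CPM in hypoxic samples, with 4 called lower and Lep without a count. In bulk RNA, fewer cells of a type and less RNA per cell cannot be told apart.

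Of the 9 members, 5 rose at 1% O2 and 1 fell. A gene is called here when its fold change passed 1.5 and its p in the quasi-likelihood test of edgeR, adjusted over all 16207 tested genes, lay under 0.05. By that rule 18.9% of all tested genes were called higher and 15.3% lower. The synthase Gys1, the branching enzyme Gbe1, the PP1 targeting subunits Ppp1r3c and Ppp1r3b and the phosphorylase Pygl rose, and glycogenin, Gyg, fell. Ugp2, Pgm2 and Pygb were not called. The median log2 fold change of the 9 members was 0.77, and that of all tested genes was -0.004. All 9 members passed the filter on low counts, and in all 9 the 3 hypoxic values lay apart from the 3 normoxic values, which held for 68.9% of all tested genes.

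**Figure D1:**
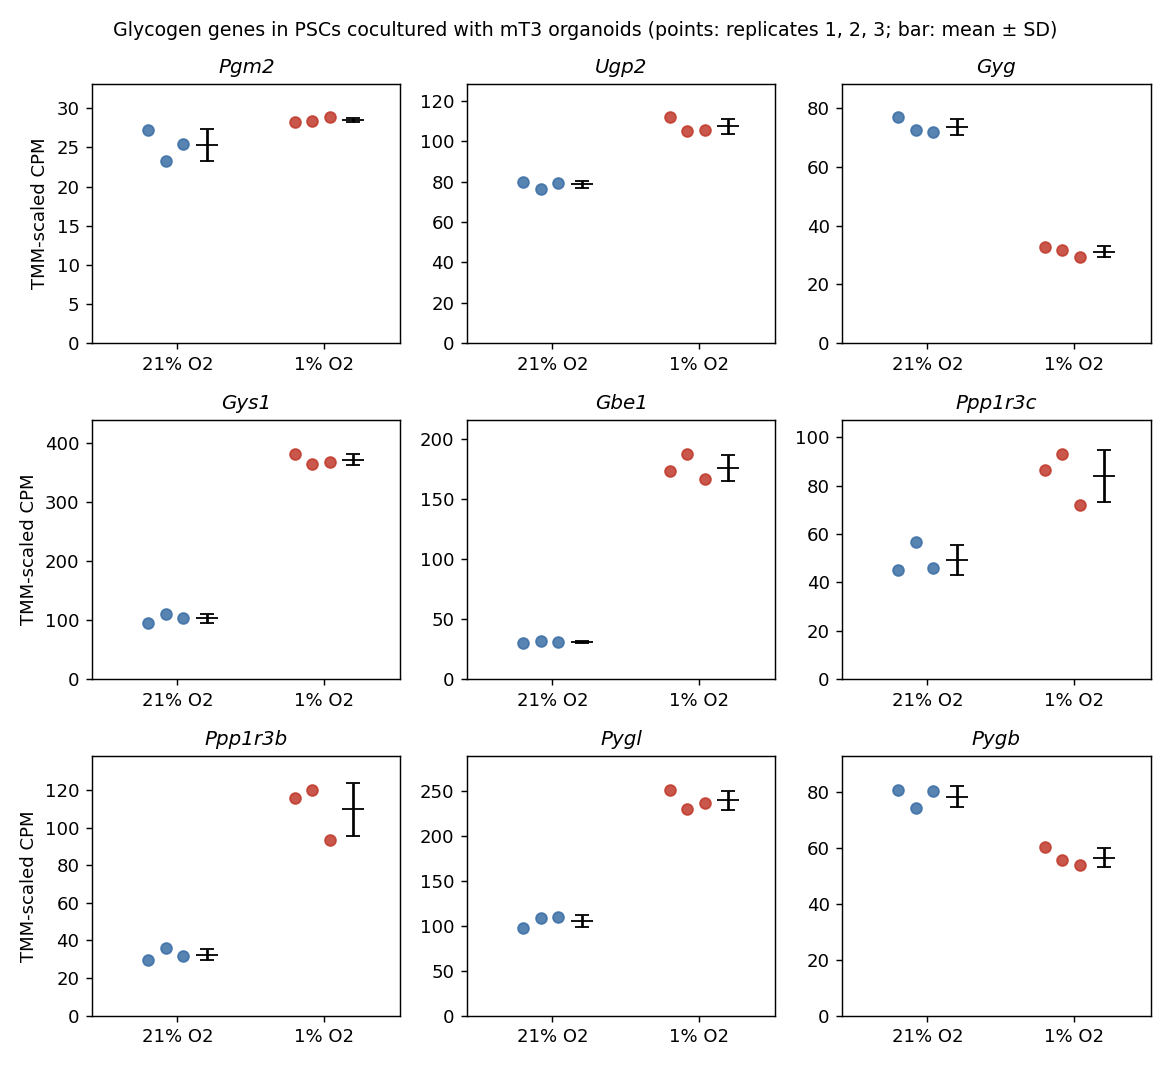
TMM-scaled CPM of the 9 glycogen genes in each sample, with replicates 1, 2 and 3 as points from left to right within each condition and the mean ± SD beside them; every vertical axis starts at 0. Gbe1 and Gys1 stand furthest apart between 21% and 1% O2, and Gyg and Pygb are the genes with all hypoxic points below all normoxic points.

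Gbe1, the branching enzyme, showed the largest change of the members. It was at 30.3, 32.2 and 30.8 CPM in normoxic replicates 1, 2 and 3, and at 173, 188 and 166 CPM in the hypoxic ones. The hypoxic samples were all more than 5 times above the normoxic ones, and the replicates of each condition lay close together. The log2 fold change was 2.50 with a standard error (SE) of 0.06, a 5.65-fold rise (adjusted p = 2.88e-08 by edgeR), and 382 is its rank among all tested genes from the highest log2 fold change down. Gbe1 (ENSMUSG00000022707) lies on chromosome 16 of GRCm38, from 70313949 to 70569716 on the plus strand.

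Gys1, the glycogen synthase of muscle and most other tissues, was at 95.5, 111 and 104 CPM in normoxic and at 382, 364 and 369 CPM in hypoxic samples. No hypoxic value came near the normoxic ones, and the hypoxic replicates differed little from each other. Its log2 fold change was 1.84 (SE 0.07, adjusted p = 8.57e-08 by edgeR), a 3.59-fold rise. Gys1 (ENSMUSG00000003865; chromosome 7, 45434844 to 45456619, plus strand) shares 310 exonic bases with the antisense gene Ruvbl2, which was at 39.0 ± 3.37 and 52.4 ± 0.70 CPM (SD, n = 3 each), and the strand setting of the counting is not stated. The liver synthase, Gys2, was close to absent, with 3, 7 and 3 counts in normoxic and 3, 0 and 0 in hypoxic samples, too few to be tested.

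Gyg, glycogenin, which primes new glycogen chains, moved the other way from the enzymes that extend and branch them. Normoxic replicates were at 76.8, 72.5 and 71.7 CPM and hypoxic replicates at 32.6, 31.6 and 29.3 CPM. All hypoxic values were below 33 CPM and all normoxic ones above 71. The log2 fold change was -1.24 (SE 0.06, adjusted p = 4.69e-07 by edgeR), a level 2.37-fold lower at 1% O2. Gyg (ENSMUSG00000019528) lies on chromosome 3 from 20122084 to 20155317 on the minus strand, and its exons overlap no other annotated gene. Of the macrophage and leukocyte markers 7 of 11, and of the adipocyte markers 4 of 5, were also called lower at 1% O2, and their part in the level of Gyg was not tested.

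Both genes of the substrate supply among the members fell short of the fold threshold. Ugp2, UDP-glucose pyrophosphorylase, was at 80.0, 76.4 and 79.2 CPM in normoxic and 112, 105 and 105 CPM in hypoxic samples, a log2 fold change of 0.45 (SE 0.05, adjusted p = 7.03e-05 by edgeR), or 1.37-fold. Its groups were well separated, so the difference exceeded the spread between replicates at a size below 1.5-fold. Pgm2 was at 27.2, 23.2 and 25.4 against 28.3, 28.4 and 28.8 CPM, with a log2 fold change of 0.17 (SE 0.07, adjusted p = 0.0599 by edgeR). The mammalian enzyme of this name acts mainly on pentose phosphates, and the main phosphoglucomutase is Pgm1, which is not among the 9 members. Pgm1 was at 135, 161 and 147 CPM in normoxic and 363, 346 and 337 CPM in hypoxic samples, a log2 fold change of 1.24 (SE 0.07, adjusted p = 1.19e-06 by edgeR), or a 2.36-fold rise. Pgm1 shares 398 exonic bases with the antisense gene Itgb3bp, which was itself under 4 CPM in all samples and lower at 1% O2.

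The PP1 targeting subunits Ppp1r3b and Ppp1r3c, which bind both glycogen and the phosphatase, rose by unequal amounts. Ppp1r3b, the form best known from liver, was at 29.8, 35.9 and 31.7 CPM in normoxic and 116, 120 and 93.4 CPM in hypoxic samples. Hypoxic replicate 3 was the lowest of its condition and still above all normoxic values. Its log2 fold change was 1.75 (SE 0.11, adjusted p = 1.51e-06 by edgeR), a 3.37-fold rise. Ppp1r3c, also called protein targeting to glycogen, was at 45.3, 56.5 and 45.8 CPM against 86.3, 93.1 and 72.2 CPM. The same sample, hypoxic replicate 3, was again the lowest of its condition. Replicate 2 was the highest of its condition at both oxygen levels, for Ppp1r3c as for Ppp1r3b. The log2 fold change of Ppp1r3c was 0.77 (SE 0.11, adjusted p = 0.000296 by edgeR), a 1.70-fold rise and the smallest among the members called higher. Ppp1r3b (ENSMUSG00000046794) lies on chromosome 8 from 35375739 to 35388139 on the plus strand, and Ppp1r3c (ENSMUSG00000067279) on chromosome 19 from 36731731 to 36736653 on the minus strand.

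The 2 phosphorylases among the members went in opposite directions. Pygl, the liver form, was at 97.5, 109 and 109 CPM in normoxic and 251, 230 and 237 CPM in hypoxic samples. All hypoxic samples were above 200 CPM and all normoxic ones below 110. Its log2 fold change was 1.19 (SE 0.06, adjusted p = 8.26e-07 by edgeR), a 2.27-fold rise. Pygb, the brain form, was at 80.8, 74.2 and 80.4 CPM against 60.2, 55.9 and 53.8 CPM, a log2 fold change of -0.47 (SE 0.06, adjusted p = 0.000172 by edgeR). The level of Pygb was 1.39-fold lower at 1% O2, beyond the replicate spread but within the fold threshold, so it was not called. The part of those 7 macrophage and leukocyte and 4 adipocyte markers called lower in the level of Pygb was not tested. Pygl (ENSMUSG00000021069) lies on chromosome 12 from 70190811 to 70231488 and Pygb (ENSMUSG00000033059) on chromosome 2 from 150786735 to 150831758. The muscle form, Pygm, stayed at 0.539 to 1.63 CPM in normoxic and 1.13 to 1.296 CPM in hypoxic samples (log2 fold change 0.21, SE 0.36, adjusted p = 0.633 by edgeR).

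Set side by side, synthesis and branching held the 2 largest log2 fold changes among the members, 2.50 for Gbe1 and 1.84 for Gys1, and also the lowest, -1.24 for Gyg. On the side of breakdown the values were 1.19 for Pygl and -0.47 for Pygb.

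**Figure D2:**
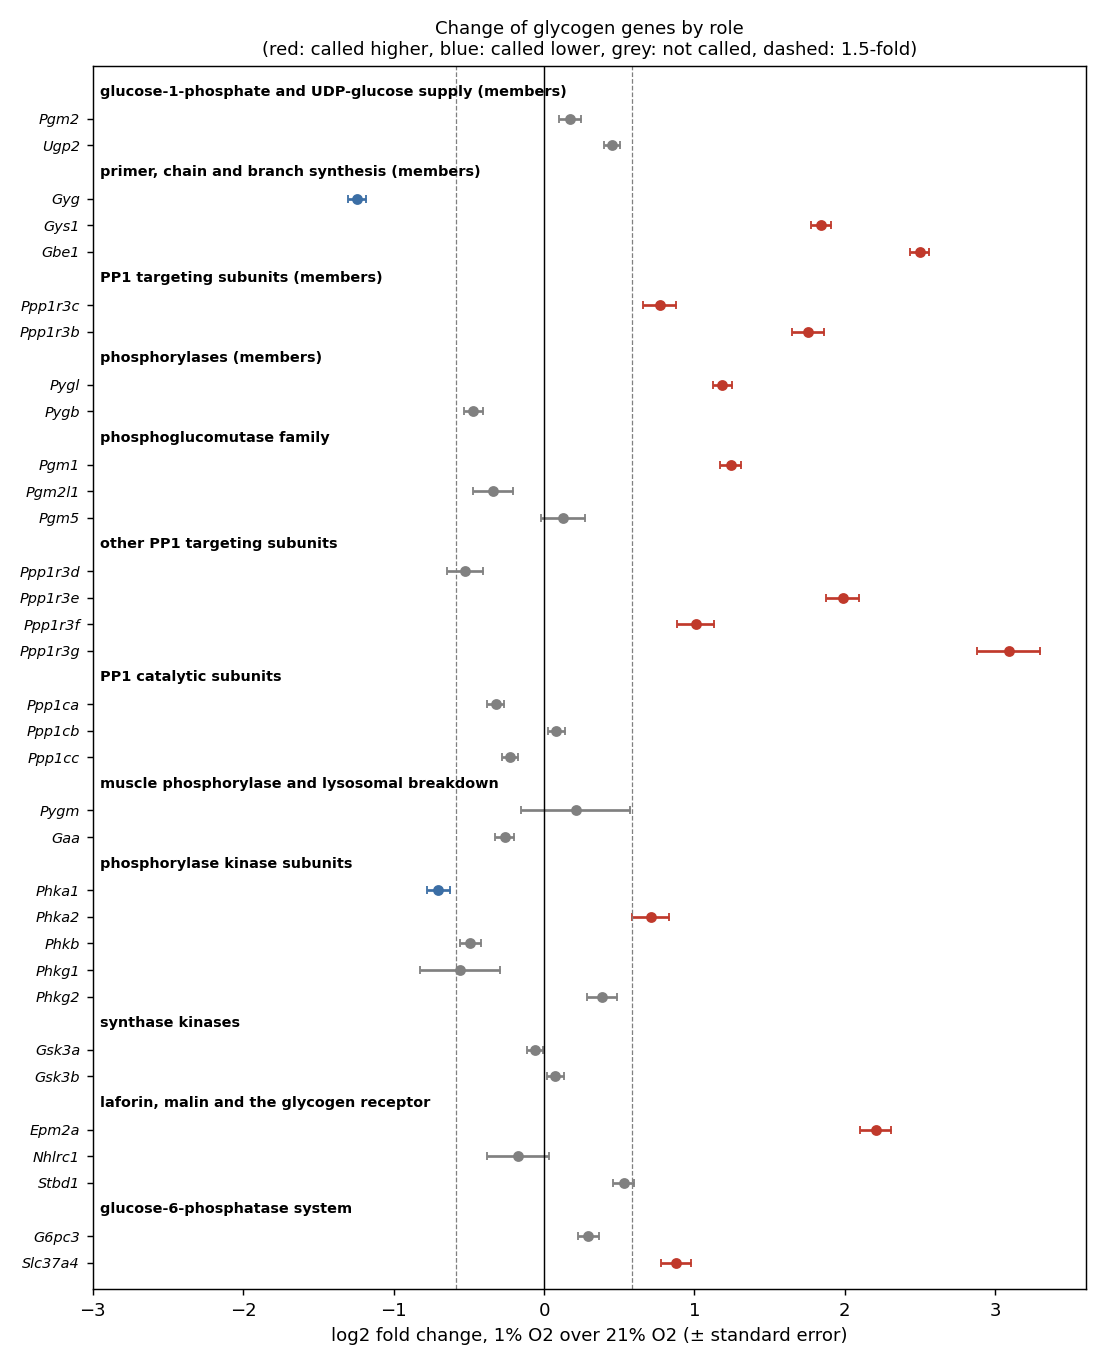
Log2 fold change of 1% over 21% O2 with its standard error for the 9 members and other tested genes of the pathway, grouped by role; red marks genes called higher, blue genes called lower and grey those not called, and dashed lines mark a fold change of 1.5. Ppp1r3g, Gbe1 and Epm2a lie furthest to the right and Gyg furthest to the left.

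Ratios of 2 genes within a sample show how these unequal changes shifted the balance. The log2 ratio of Gys1 to Pygl, each per kilobase of exon, was 0.50 ± 0.05 in normoxic and 1.16 ± 0.03 in hypoxic samples (SD, n = 3 each), a difference of 0.66. That of Gys1 to Gbe1 went from 1.89 ± 0.07 to 1.24 ± 0.11, a difference of -0.65. The log2 ratio of Pygl to Pygb went from -0.10 ± 0.14 to 1.56 ± 0.05, and that of Ppp1r3c to Ppp1r3b from 1.79 ± 0.06 to 0.80 ± 0.03. The level of each ratio depended on the length used: with the longest transcripts Gys1 to Pygl went from -0.25 to 0.41, and Pygl to Pygb from 0.74 to 2.39, so the sign of both normoxic ratios turned, while the differences between conditions stayed as given because lengths cancel in them. In none of the 4 pairs compared did the 2 conditions overlap. Each gene in these pairs had already differed between conditions without overlap, and no share over other gene pairs was computed. The separation of the ratios is therefore not separate support. An exact two-sided permutation test over the 6 samples gave p = 0.1 for each pair, the smallest value that 3 samples against 3 allow, and 0.1 after adjustment over the 4 pairs, so none could pass a threshold of 0.05.

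Levels of different genes were compared per length, as RPKM, the CPM divided by the kilobases of merged annotated exons. In normoxic PSCs Gyg was the highest of the 9 members, at 31.4 ± 1.17 RPKM, followed by Ugp2 at 25.6 ± 0.61 and Gys1 at 21.6 ± 1.65 (SD, n = 3 each). Gbe1 at 5.81 ± 0.19 and Ppp1r3b at 5.23 ± 0.50 RPKM were the lowest and did not differ beyond their spread. Ranges of Gys1 and Ppp1r3c, of Ppp1r3c and Pygb, and of Pygb and Pygl also overlapped. In hypoxic PSCs Gys1 was highest at 77.7 ± 1.94 RPKM, and Ugp2 (35.0 ± 1.22), Pygl (34.7 ± 1.53), Gbe1 (32.8 ± 2.02) and Ppp1r3c (30.8 ± 3.92) followed, each overlapping its neighbour in this order. Ppp1r3b was at 15.0 to 19.3 RPKM. Gyg had moved to place 7, at 13.3 ± 0.74 RPKM, overlapping Pygb at 11.8 ± 0.68, and Pgm2 was the lowest, at 10.9 to 11.1 RPKM. Pygl depended most on the length used: with its longest transcript, 3150 bases in place of 6895 bases of merged exons, it was at 33.4 ± 2.15 RPKM in normoxic and 76.0 ± 3.34 in hypoxic samples. It then ranked next after Gyg in normoxic and next after Gys1 in hypoxic samples.

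**Figure D3:**
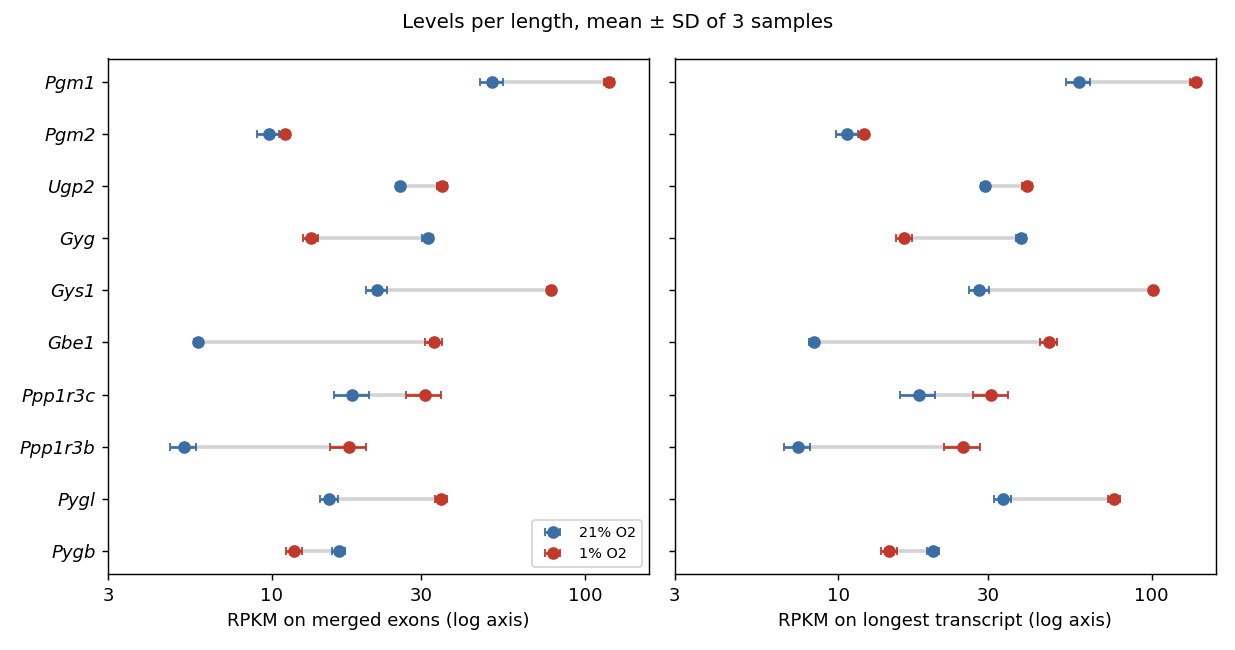
Levels per length in RPKM on a log axis, mean ± SD of 3 samples at 21% O2 (blue) and 1% O2 (red), for the 9 members and Pgm1, with merged exons as the length on the left and the longest transcript on the right. Gyg is the highest member at 21% O2 and Gys1 the highest member at 1% O2 with either length.

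Of the summed RPKM of the 3 phosphorylase genes, Pygl made up 45.5%, 49.8% and 48.3% in normoxic and 73.8%, 73.6% and 74.9% in hypoxic samples. Pygb thus held about as much as Pygl at 21% O2 and 24.4% to 25.6% at 1% O2. The sum itself was 31.91 ± 0.89 RPKM in normoxic and 46.9 ± 2.14 in hypoxic samples (SD, n = 3 each). With the longest transcripts as lengths, the share of Pygl was 62.0% ± 2.11 and 83.6% ± 0.49. Among 6 PP1 targeting subunit genes, Ppp1r3c kept the largest share, 60.7% ± 1.46 in normoxic and 47.3% ± 1.20 in hypoxic samples, and Ppp1r3b held 17.6% ± 0.35 and 27.1% ± 0.84. Their summed level was 29.7 ± 3.33 and 64.9 ± 6.73 RPKM.

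**Figure D4:**
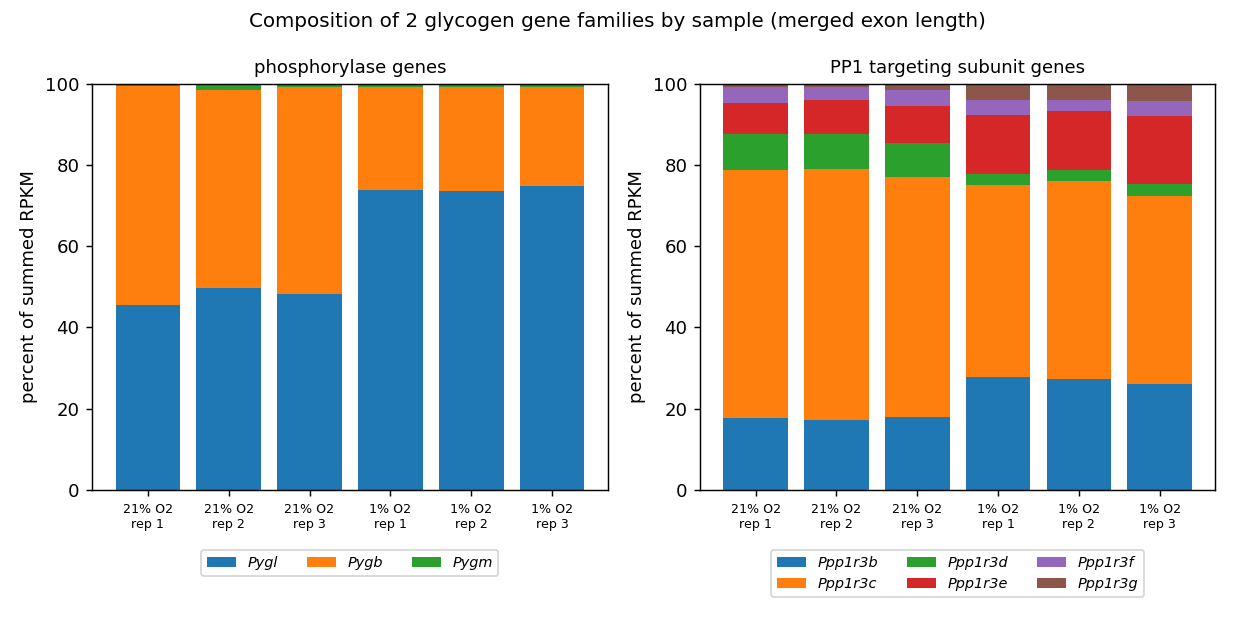
Percent of the summed RPKM (merged exon length) held by each phosphorylase gene (left) and each PP1 targeting subunit gene (right) in each of the 6 samples. Pygl holds 45.5% to 49.8% of the phosphorylase sum at 21% O2 and 73.6% to 74.9% at 1% O2.

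A list of 28 other genes of the pathway was read in the same fit. Of these 25 could be tested, 7 were called higher and 1 lower, against 18.9% and 15.3% of all tested genes, and the median log2 fold change was 0.12. Gys2, Ppp1r3a and G6pc, the forms of liver or muscle, were under 1 CPM in every sample and were not tested. Beside Pgm1, the genes called higher were Ppp1r3e, Ppp1r3f, Ppp1r3g, Phka2, Epm2a and Slc37a4, and the gene called lower was Phka1.

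Of the 4 tested genes of other PP1 targeting subunits, 3 were called higher, against 18.9% of all tested genes. Ppp1r3g rose from 0.616, 0.759 and 1.14 CPM to 7.23, 7.40 and 6.76 CPM, a log2 fold change of 3.09 (SE 0.21, adjusted p = 3.09e-06 by edgeR), the largest on either list. Its normoxic values came from only 16, 20 and 28 counts. Ppp1r3e rose from 5.20, 7.02 and 6.45 to 24.2, 25.8 and 23.9 CPM (log2 fold change 1.99, SE 0.11, adjusted p = 9.55e-07 by edgeR). Every hypoxic value of either gene was more than 3 times any normoxic value. Ppp1r3f rose from 5.64 ± 0.23 to 11.4 ± 1.48 CPM (SD, n = 3 each, adjusted p = 9.81e-05 by edgeR), with 2415 exonic bases shared with another gene on the same strand, so its level is uncertain. Ppp1r3d was at 8.39 ± 0.85 and 5.83 ± 0.27 CPM (SD, n = 3 each) and was not called. None of the 3 genes of the PP1 catalytic subunit was called either, with log2 fold changes from -0.32 to 0.08.

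Phosphorylase kinase switches phosphorylase on, and its 5 subunit genes did not move together. Phka2, the liver form of the alpha subunit, rose from 10.7, 14.1 and 12.9 to 17.7, 21.1 and 22.6 CPM (log2 fold change 0.71, SE 0.12, adjusted p = 0.000924 by edgeR). Phka1, the muscle form, fell from 18.8, 19.7 and 19.0 to 11.5, 11.4 and 12.4 CPM (log2 fold change -0.70, SE 0.08, adjusted p = 5.13e-05 by edgeR). Per length of merged exons, Phka1 was above Phka2 in every normoxic sample (2.996 to 3.15 against 1.76 to 2.32 RPKM) and below it in every hypoxic one (1.82 to 1.98 against 2.92 to 3.73 RPKM). With the longest transcripts as lengths the order held except in normoxic replicate 2, where Phka1 was at 3.23 and Phka2 at 3.24 RPKM. The part of the same 7 macrophage and leukocyte and 4 adipocyte markers in the level of Phka1 was not tested. Phkb, Phkg1 and Phkg2 were not called. The kinases Gsk3a and Gsk3b, which inhibit synthase, overlapped between the conditions, with log2 fold changes of -0.06 (SE 0.05) and 0.08 (SE 0.06).

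Epm2a encodes laforin, a phosphatase that removes phosphate from glycogen. It rose from 5.78, 5.28 and 5.32 to 25.0, 27.8 and 22.7 CPM, a log2 fold change of 2.21 (SE 0.10, adjusted p = 3.28e-07 by edgeR), or 4.61-fold. Nhlrc1, which encodes its partner malin, overlapped between the conditions at 2.80 ± 0.48 and 2.50 ± 0.47 CPM (SD, n = 3 each). Stbd1, a glycogen-binding protein, was at 33.7 ± 2.46 and 48.7 ± 2.72 CPM (log2 fold change 0.53, SE 0.07, adjusted p = 0.000194 by edgeR), under the fold threshold. Slc37a4, the carrier of glucose-6-phosphate into the endoplasmic reticulum, rose from 12.97 ± 1.79 to 23.9 ± 0.82 CPM (SD, n = 3 each, adjusted p = 6.83e-05 by edgeR). Its partner G6pc3 had a log2 fold change of 0.30 and Gaa, the lysosomal enzyme that degrades glycogen, one of -0.26, neither past the fold threshold.

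The promoters of members called higher are shown because hypoxia-inducible factors are known to bind DNA at the core letters ACGTG or GCGTG. What raised these genes was not tested. Sequences are those of RefSeq on GRCm38.p6, 250 bases before the annotated start, which matched 8 of the 9 members with 9 windows. Ppp1r3b had no entry. Both motifs were searched on both strands, and capitals mark every match. For Ppp1r3c the stretch ends after 201 bases, at the first base annotated as exon. The windows are Gys1 at chr7:45434589-45434838 (plus strand), Gbe1 at chr16:70313699-70313948 (plus strand), Ppp1r3c at chr19:36736654-36736854 (minus strand) and Pygl at chr12:70227684-70227933 (minus strand), each written 5′ to 3′. The window of Pygl lies inside the span that GENCODE gives this gene, outside its annotated exons.
Gys1: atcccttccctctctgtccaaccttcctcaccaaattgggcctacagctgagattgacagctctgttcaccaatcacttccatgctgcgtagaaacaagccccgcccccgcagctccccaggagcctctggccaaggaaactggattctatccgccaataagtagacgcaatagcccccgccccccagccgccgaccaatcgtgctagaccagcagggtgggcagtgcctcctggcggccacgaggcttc
Gbe1: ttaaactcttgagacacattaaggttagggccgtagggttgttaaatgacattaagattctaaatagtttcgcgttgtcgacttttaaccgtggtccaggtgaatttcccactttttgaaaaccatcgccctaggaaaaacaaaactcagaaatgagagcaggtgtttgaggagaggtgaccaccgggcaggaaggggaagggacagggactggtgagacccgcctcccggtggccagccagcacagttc
Ppp1r3c: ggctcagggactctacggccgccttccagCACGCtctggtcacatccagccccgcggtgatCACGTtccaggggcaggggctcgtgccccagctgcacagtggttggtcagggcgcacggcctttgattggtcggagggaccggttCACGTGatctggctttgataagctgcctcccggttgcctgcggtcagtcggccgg
Pygl: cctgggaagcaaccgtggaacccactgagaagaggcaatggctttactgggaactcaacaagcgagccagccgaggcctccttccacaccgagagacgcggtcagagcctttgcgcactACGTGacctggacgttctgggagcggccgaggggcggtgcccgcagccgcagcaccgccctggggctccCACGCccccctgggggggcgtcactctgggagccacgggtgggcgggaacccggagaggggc

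The genes with the largest changes among the members, Gbe1 and Gys1, held neither motif in these windows, which says only that the letters are not there. The window of Ppp1r3c held 4 matches, 2 of which overlap in the palindrome CACGTG at 104 to 99 bases before the start, and that of Pygl held 1 match of each motif. Among members that were not called higher, Gyg, Pgm2, Pygb and 1 of 2 windows of Ugp2 held at least 1 match. Of the 250 bases of a window, 201 for Gyg, 61 for Pygb and 49 for Ppp1r3c are annotated as exon. Matches were counted over whole windows, these bases included. In all, 6 of the 9 member windows held ACGTG or GCGTG, against 38.6% of 32851 windows of this length in the RefSeq table, and 5 held ACGTG, against 16.6%. The GC content of the member windows was 48.8% to 73.6%, and the median of all windows was 52.4%, so these GC-rich motifs were counted in windows that mostly held more G and C than the background, and the part of GC content was not tested. A match is a description of the sequence and does not show binding.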

How the data were processed

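RNA of PSCs cocultured with mT3 organoids was sequenced in 3 normoxic and 3 hypoxic samples, grouped by the labels. The authors made poly(A) libraries and mapped reads to GRCm38 with STAR (2.6.1b) and RSEM (1.3.1), versions as in the submitters' notes. The authors deposited these as RSEM's expected counts per gene, not normalized, and 0 of the values had a fraction, so rounding changed nothing. RSEM divides reads of similar genes by an estimate. The annotation release is not given in the sources used here. Names, positions and lengths are from GENCODE M21, which holds 55240 of the 55426 features.

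edgeR 4.0.16 (R 4.3.3, limma 3.58.1) was used with filterByExpr (16207 genes kept), TMM scaling and the quasi-likelihood F test of 1% against 21% O2 without covariates, Benjamini-Hochberg adjusted over all tested genes, and calls at a fold change beyond 1.5 and adjusted p under 0.05. Standard errors are the log2 fold change divided by the square root of F. RPKM are CPM per kilobase. DESeq2 (1.42.0), limma-voom, other scalings, filters and thresholds, a replicate block and leaving out each sample were alternatives. The fits were tested on simulated data. At these depths 3 counts, taken as the detection floor, are 0.0943 to 0.122 CPM, counting error only. Replicates of a condition differed by more than counting noise (chi-square 4.50 to 16.8 per degree of freedom).

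The members and lists were chosen with earlier results of these data known. The text names all members, the other pathway genes that were called, and Pygm, Gys2 and Pgm1. 1 other gene that the rule holds is counted in the list but not reported here. Other genes named singly (those with low counts, the antisense neighbours, uncalled genes of a role, Krt19 and Muc1) were chosen after their values were seen.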

Additional observations from a re-analysis of the deposited data

How the results depend on the processing

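All 9 members kept their direction and their call, by fold and adjusted p together, in each of 15 alternative fits, namely the replicate block, 3 other scalings, 2 other filters, limma-voom, 2 fits by DESeq2 (1 of them blocked) and 6 fits that each left out 1 sample. The adjusted p of Pgm2, never past the fold threshold, ran from 0.0287 to 0.202 over them. In these fits 5 members were called higher and 1 lower, and 7 other pathway genes higher and 1 lower. With each sample left out, Gbe1 had a log2 fold change from 2.44 to 2.53, and the others ran from 1.78 to 1.89 for Gys1, from 1.13 to 1.21 for Pygl, from 1.68 to 1.86 for Ppp1r3b, from 0.68 to 0.87 for Ppp1r3c and from -1.27 to -1.20 for Gyg. Of the 510 values of the 34 tested genes, 2 changed sign, both of genes not called: Pgm5 ran from -0.035 (adjusted p = 0.835 by edgeR, without hypoxic replicate 2) to 0.233, and Pygm from -0.106 (adjusted p = 0.784 by edgeR, without normoxic replicate 1) to 0.702. Counts followed the fold threshold. With none, 10168 genes were called in place of 5547, 2 members were called lower, and 11 other pathway genes were higher and 7 lower. With a fold change of 2 there were 3156 genes, 4 members higher (without Ppp1r3c) and 0 other pathway genes lower.

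Replicate numbers 1 to 3 occur in both conditions. No source states that they mark shared lines or days, and for that reason the main fit assumed no pairing. Same-numbered samples deviated from their group means with correlations of 0.222, 0.195 and 0.0529 across genes. Pairs with unlike numbers ran from -0.206 to 0.0136, so each sample correlated best with its own number. Whether same-numbered samples share a line or day was not tested. With the replicate block 5572 genes were called in all, and the log2 fold changes were 2.50 for Gbe1, 1.85 for Gys1 and -1.24 for Gyg. It changed no call of a member or pathway gene. No scaling moved the median of all genes by more than 0.0233. Using the longest transcript as length moved 16 per-length levels by more than the replicate spread and left the 4 ratio differences as they were. Pygm and Ppp1r3g are limited by depth in normoxic samples.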

Other observations

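The AMP-activated kinase senses cellular energy, and its beta subunits carry a domain that binds glycogen. Its 7 subunit genes were looked at after the results above were known, so the choice is not independent of them. Prkab2, a beta subunit gene, averaged 19.5 ± 1.10 CPM at 21% O2 and 64.3 ± 1.20 CPM at 1% O2 (SD, n = 3 each). It was called higher, with a log2 fold change of 1.72 (SE 0.06, adjusted p = 7.95e-08 by edgeR). The other beta subunit gene, Prkab1, was at 28.3 ± 0.90 and 33.6 ± 1.43 CPM (SD, n = 3 each) and was not called. Prkag2, a gamma subunit gene, was called lower, with 30.5 ± 3.55 and 20.1 ± 1.39 CPM (SD, n = 3 each, adjusted p = 0.000468 by edgeR). Prkaa1, Prkaa2 and Prkag1 were not called, and Prkag3, with at most 1 count a sample, was not tested. The background of calls over all tested genes is the one given for the members, and the list was not tested as a whole.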
